A study of Papio anubis with 25 samples.

Results

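The apolipoproteins are the protein part of lipoproteins, the particles that carry cholesterol and triglyceride in blood. Their messenger RNA was followed in 25 bulk RNA-seq libraries of olive baboon (Papio anubis), with liver, pancreas, and parotid, submandibular and sublingual salivary gland from each of 5 animals. The genes were chosen by symbol: APOA1, APOA2, APOA4, APOA5, APOB, APOC3, APOE, APOF, APOH and APOM. Of these 10 symbols, 9 were found among 21287 genes, and APOM is not analysed here. Number 5 was the only male animal and the other 4 were female, and the labels give no treatment, age or genotype. Each tissue came from flash-frozen pieces, 1 library for each tissue of each animal. The study was built to compare the salivary glands with pancreas, and pancreas with liver, within the same animals.

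The liver releases very-low-density lipoprotein, built around 1 large APOB protein, and makes most of the APOA1 that starts a high-density lipoprotein particle. Smaller apolipoproteins move between the particles in plasma and set how fast lipases and receptors take the lipid away. Several are also made elsewhere: APOB and APOA4 in the cells lining the gut, and APOE in macrophages, fat cells and glia.

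Values are TPM, a gene's part of all transcripts in a library, corrected for transcript length so that levels of different genes can be compared. Sequencing depth is unknown, and errors are standard deviations (SD) over 5 animals. Defining markers matched the liver and pancreas labels: the summed level of 11 hepatocyte markers was 22413 to 63970 TPM in the livers and 104 to 979 TPM in the other 20 libraries, and 6 pancreatic acinar markers summed to 65234 to 127100.1 TPM in pancreas and at most 1830.0 TPM elsewhere. The gland libraries were less uniform. The water channel AQP5, a salivary acinar marker, was at 2.25 and 3.64 TPM in the parotid glands of baboons 2 and 5. In the sublingual glands of baboons 2 and 4 it was at 2.61 and 3.78 TPM. All 4 values lay below the 3.90 TPM of the highest liver. The sum of 4 salivary markers, AQP5 among them, set apart these sublingual libraries but not these parotid libraries. It was 975.9 and 2096.9 TPM in the parotid glands of baboons 2 and 5, against 870.3 to 2892.5 TPM in the others. In the sublingual glands of baboons 2 and 4 it was 211.3 and 2194.2 TPM, against 5999.2 to 217978.6 TPM in the others. Adipocyte markers summed to 21974.5 TPM in the parotid of baboon 2 and 6992 TPM in the submandibular gland of baboon 5, lymphoid markers to 738 TPM in the parotid of baboon 5, and skeletal muscle markers to 61979 TPM in the sublingual gland of baboon 2. Results that rest on the 4 libraries with these high sums, the marker-rich gland libraries, are given with and without them. Other gland libraries also stood apart: stratified epithelium markers summed to 76132.5 and 18202 TPM in the sublingual glands of baboons 1 and 4, and adipocyte markers to 2814 TPM in the submandibular gland of baboon 2. A fit without all 7 of these gland libraries was added after the values were seen. In bulk tissue, fewer cells of a type and less RNA per cell cannot be told apart.

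APOA1 and APOA2, the main proteins of high-density lipoprotein, were the highest of the 9 in liver. APOA2 stood at 25717, 24316, 28915, 28690.1 and 47909 TPM in the livers of baboons 1 to 5, a mean of 31109.5 ± 9593 TPM (SD, n = 5). APOA1 stood at 10869, 9311, 14102, 8893 and 16081 TPM, a mean of 11851 ± 3127 TPM. Baboon 5 held the highest value of both genes, and APOA2 exceeded APOA1 in 5 of 5 livers with no overlap of their ranges. The ratio of APOA2 to APOA1 lay between 2.05 and 3.23 in liver and between 2.80 and 4.83 in the other 20 libraries.

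APOC3, which slows lipolysis and the uptake of triglyceride-rich particles, was at 5987, 9745, 12006, 11934 and 6810.0 TPM in liver, a mean of 9297 ± 2812 TPM. APOA5, which promotes lipolysis by lipoprotein lipase, was at 438, 711, 875, 667 and 228 TPM, a mean of 584 ± 253 TPM. Within every liver the inhibitor was the more abundant of this pair, with a ratio of APOC3 to APOA5 of 13.7, 13.7, 13.7, 17.9 and 29.9 in baboons 1 to 5. APOA4, a protein of gut chylomicrons, was at 42.1, 149, 332, 237 and 5.99 TPM, a mean of 153 ± 135 TPM. APOA4 had the largest spread of the 9 in liver, a coefficient of variation of 88.2% against 14.3% for APOE, and baboon 5 was far below the other animals.

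APOB, the non-exchangeable scaffold of very-low-density and low-density lipoprotein, was the lowest of the 9 in liver by mean. Its livers stood at 119.8, 137, 108.5, 95.5 and 24.3 TPM, a mean of 97.1 ± 43.5 TPM, so baboon 5 was again lowest. APOE, the ligand through which remnant particles bind receptors, was at 9224, 11402, 10501, 7877 and 8981 TPM, a mean of 9597 ± 1374 TPM. No animal stood apart in liver APOE. APOH, also called beta-2-glycoprotein I, a phospholipid-binding plasma protein, was at 3763.5, 3371, 3530.5, 3536 and 1433 TPM, a mean of 3127 ± 957 TPM. APOF, which inhibits cholesteryl ester transfer protein, was at 270.3, 316, 366, 309.5 and 119 TPM, a mean of 276 ± 94.3 TPM. Baboon 5 was the lowest liver for both APOH and APOF, and the other 4 livers of APOH lay within a narrow range.

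By mean level in liver the order was APOA2, APOA1, APOE, APOC3, APOH, APOA5, APOF, APOA4 and APOB. Neighbours in this order were separated without overlap for APOA2 over APOA1, APOC3 over APOH and APOH over APOA5. The ranges of the other neighbours overlapped: APOA1 exceeded APOE in 4 of 5 livers, APOE exceeded APOC3 in 3 of 5 and APOA4 exceeded APOB in 3 of 5. Together the 9 genes made up 6.61 ± 1.02% of the liver library (SD, n = 5). The same sum was 0.0571 ± 0.0157% in pancreas, 0.0908 ± 0.0855% in parotid, 0.0729 ± 0.0706% in submandibular and 0.0584 ± 0.0271% in sublingual gland.

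**Figure D1:**
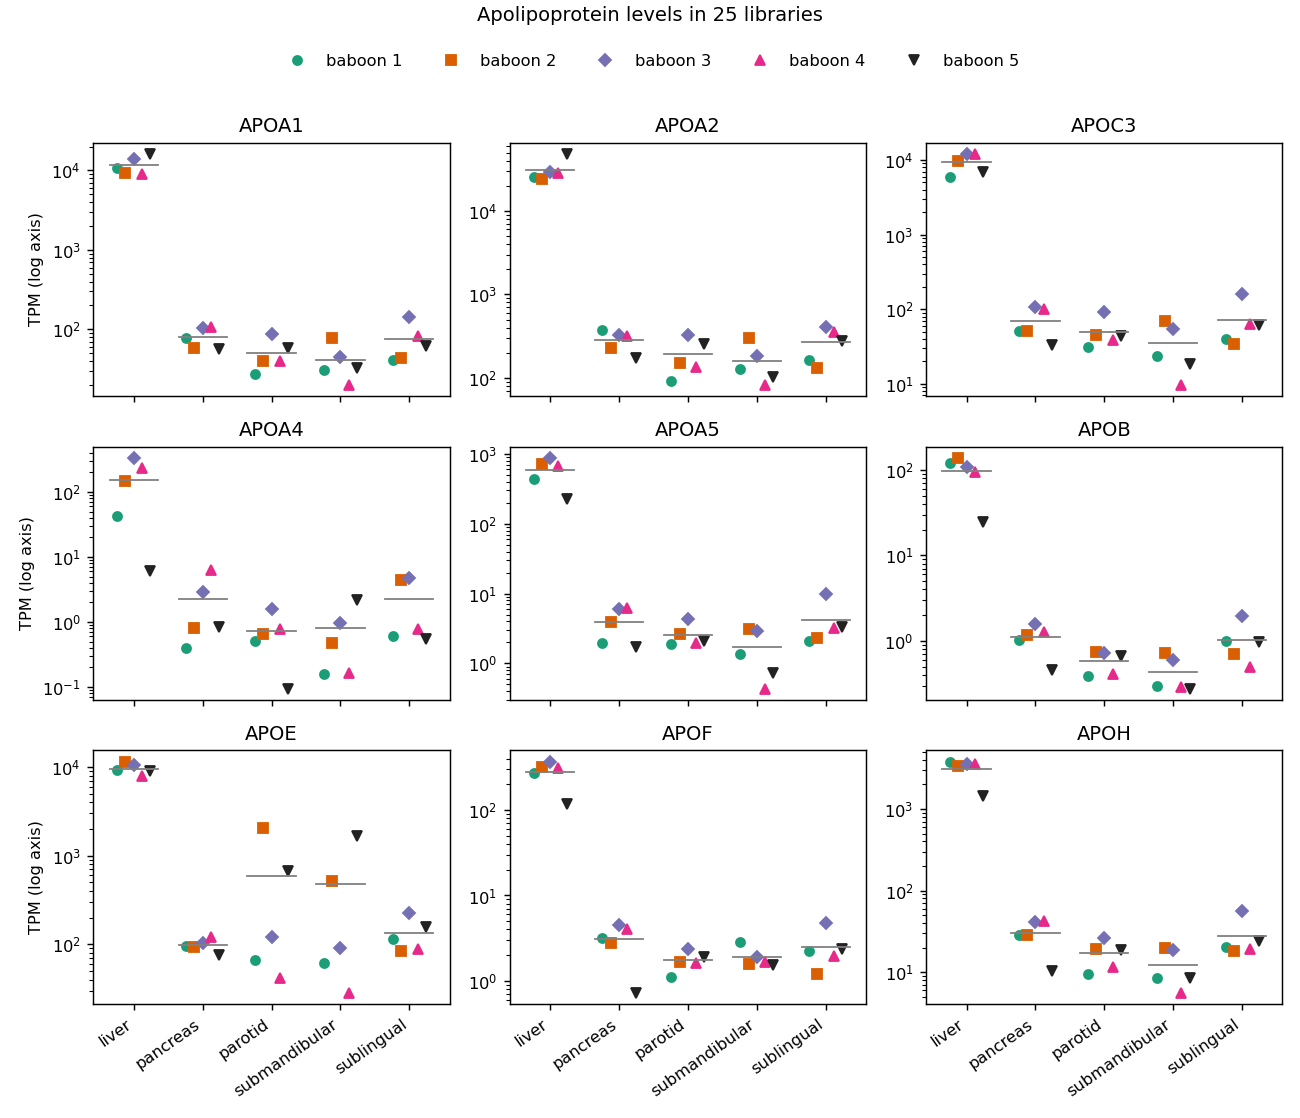
TPM (log axis) of each of 9 apolipoproteins in liver, pancreas, parotid, submandibular and sublingual gland, with 1 point per animal and a grey line at the mean of 5 animals. Liver stands above the other tissues for every gene, baboon 5 has the lowest liver APOB (24.3 TPM) and APOA4 (5.99 TPM), and APOE reaches 2054 TPM in the parotid of baboon 2.

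All 9 apolipoproteins were higher in liver than in every other tissue. They were called at an adjusted p under 0.05 and a log2 fold change of at least 1 with limma and Benjamini-Hochberg adjustment over 14991 genes. Against this, calls higher in liver covered 10.9% of all genes tested for parotid, 13.9% for submandibular gland, 9.52% for sublingual gland and 14.6% for pancreas. The median log2 fold change of the 9 was 7.25 against parotid, 7.71 against submandibular gland, 6.83 against sublingual gland and 6.71 against pancreas, where the medians over all genes were -0.013, 0.27, -0.17 and 0.44. The direction held in 5 of 5 animals for every gene and tissue. The 9 passed the filter on low values, none through liver alone, but APOA4 and APOB had means under 1 TPM in parotid and submandibular gland. The 11 hepatocyte markers, with medians of 7.26 against parotid and 6.49 against pancreas, were also all called higher.

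APOA1 had the largest log2 fold change of the 14991 genes against parotid, at 7.91 (SE 0.41, limma adjusted p = 4.21e-13), and also ranked 1 against pancreas at 7.20 (SE 0.41, limma adjusted p = 2.71e-12) and 1 against sublingual gland. Its mean was 11851 TPM in liver, 50.7 TPM in parotid and 80.4 TPM in pancreas. APOC3 ranked 2 against submandibular gland, with a difference of 8.27 (SE 0.45, limma adjusted p = 5.23e-13) between means of 9297 and 35.2 TPM. At the other end, the smallest of the 9 was APOE against parotid and APOA4 against the other 3 tissues. APOA4 differed between liver and pancreas by 4.94 (SE 0.63, limma adjusted p = 1.85e-06), and APOE between liver and parotid by 5.46 (SE 0.79, limma adjusted p = 1.26e-05). The APOE difference from parotid was 6.84 without the 4 marker-rich gland libraries, and APOE ranked 198 against parotid but 31 against pancreas.

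The pseudocount of 1 TPM holds down the fold of genes that are low outside liver. With a pseudocount of 0.1 TPM the APOB difference moved from 5.75 to 6.97 against parotid and from 5.90 to 7.37 against submandibular gland. APOA4 moved from 5.62 to 6.88 against parotid, APOA5 from 7.74 to 8.52 against submandibular gland and APOF from 6.59 to 7.18 against parotid. The order of fold changes among the low genes is therefore set in part by the pseudocount. The ranges of liver and another tissue overlapped only for APOA4 against pancreas, where the liver of baboon 5 (5.99 TPM) lay under the pancreas of baboon 4 (6.30 TPM).

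**Figure D2:**
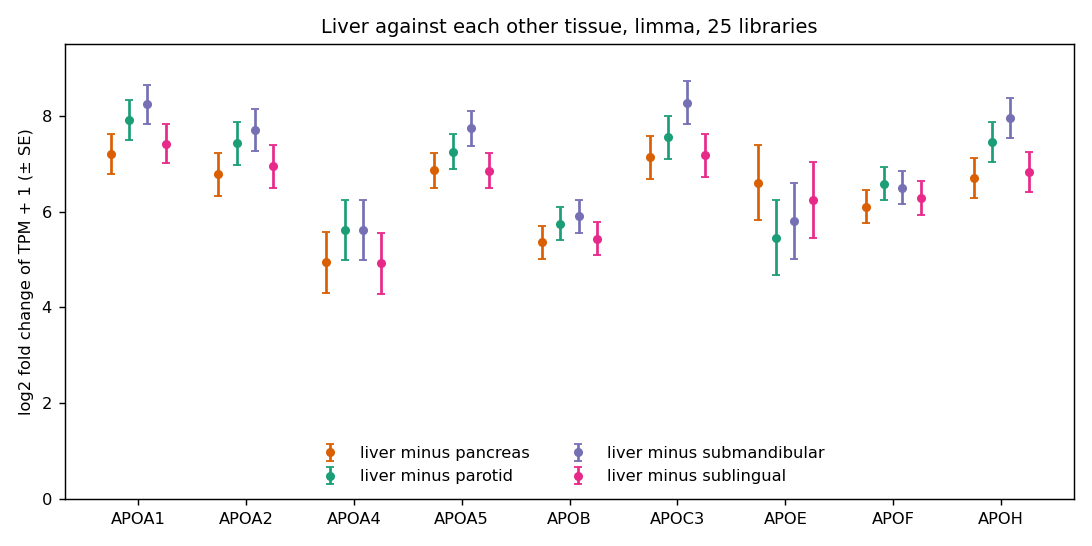
Log2 fold change of TPM + 1 with its standard error for liver minus each other tissue, from limma over 25 libraries, for 9 apolipoproteins. All points lie above 4.9, the APOA1 and APOC3 points reach 8.24 and 8.27 against submandibular gland, and the APOE point against parotid is lower at 5.46.

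The other genes of lipoprotein metabolism were counted in lists by role, liver against parotid first and pancreas second. Over all genes, 2.84% were called lower in liver than in parotid and 2.86% lower than in pancreas, beside the shares called higher above. Of 9 other apolipoprotein genes tested, 5 were higher in liver than in parotid and 1 was lower, and against pancreas 5 were higher and 0 lower. The 5 were APOC1, APOC2 and APOC4, small exchangeable apolipoproteins, LPA, the protein of lipoprotein(a), and SAA4, carried on high-density lipoprotein. Against parotid the largest were APOC2, SAA4 and APOC4, at 7.63, 7.41 and 7.19, and against pancreas SAA4, APOC2 and APOC1, at 6.92, 6.84 and 6.84. APOC1, at 19106 ± 3624.5 TPM, exceeded every gene of the 9 but APOA2 by mean in liver. The exception was APOD, a lipocalin made in many tissues, which averaged 9.83 TPM in liver and 143 TPM in parotid and differed by -2.73 (SE 0.63, limma adjusted p = 0.00318). Neither APOO nor APOOL, mitochondrial proteins despite their names, passed the test in either comparison.

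Among 11 genes of particle assembly and secretion, 7 were higher in liver than in parotid and 1 was lower, and 8 were higher than in pancreas. MTTP, the transfer protein that loads lipid onto APOB, averaged 17.3 TPM in liver and 0.127 TPM in parotid and differed by 3.88 (SE 0.28, limma adjusted p = 6.02e-11). TM6SF2, needed to lipidate the particle, differed by 4.86 against parotid and 4.84 against pancreas, and DGAT2, which makes triglyceride, by 4.02 against parotid (limma adjusted p = 0.0288) and 4.98 against pancreas. ACSL1, which activates fatty acids, differed by 4.28 against pancreas. The DGAT2 call against parotid was lost without baboon 1, 3 or 4, and without a filter on low values. SOAT1, which esterifies cholesterol in many cell types, was lower in liver than in parotid by -1.73 (limma adjusted p = 0.0139), a call lost without baboon 1, 3 or 4 and in the fit of these 2 tissues alone.

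Of 11 genes that remodel lipoproteins in plasma, 6 were higher in liver than in parotid and 7 than in pancreas, with 0 lower. Among them were PON1, an esterase carried on high-density lipoprotein (6.83 against parotid and 6.09 against pancreas), and ANGPTL8, which takes part in lipase inhibition (6.11 and 6.18). LPL, the lipase of fat and muscle, averaged 1.96 TPM in liver and 79.7 TPM in parotid and did not pass (limma adjusted p = 0.221). Its parotid mean rested on the adipocyte-rich library of baboon 2, at 375.6 TPM. The parotid median of 1.85 TPM was under the liver median of 2.35 TPM. Of 10 receptor and uptake genes tested, 4 were higher in liver than in parotid and 1 was lower, and 6 were higher than in pancreas. AMN, part of a receptor that takes up APOA1 in kidney, differed by 4.12 against parotid and 4.14 against pancreas. SCARB1, the high-density lipoprotein receptor, and LRP1, a remnant receptor, were higher in liver than in pancreas by 3.56 and 3.30. VLDLR was lower by -1.09 against parotid (limma adjusted p = 0.0261), a call lost without baboon 1, 2, 3 or 4 and in the fit of these 2 tissues alone.

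Of 4 transporters of sterol and phospholipid, 3 were higher in liver than in parotid and in pancreas: the bile sterol exporters ABCG5 (4.50 against parotid and 4.44 against pancreas) and ABCG8 (4.69 and 4.57), and the phospholipid exporter ABCB4 (2.71 and 3.13). ABCG1, which loads cholesterol onto high-density lipoprotein in macrophages, was lower than in parotid by -1.92. Of 13 transcription regulators, 10 were higher in liver than in parotid with 0 lower, and 9 were higher than in pancreas with 1 lower. CREB3L3, HNF4A and NR1H4, known regulators of apolipoprotein genes, led with 5.54, 4.96 and 4.28 against parotid and 5.10, 3.94 and 3.45 against pancreas, and the exception was NR5A2, at 2.98 TPM in liver and 8.97 TPM in pancreas (-1.33, limma adjusted p = 0.0066), a call lost without baboon 3 or 4 and with a pseudocount of 0.1. APOD, SOAT1, VLDLR and ABCG1 were lower in liver than in a parotid group that holds the adipocyte-rich library of baboon 2, where adipocyte markers summed to 21974.5 TPM against 29.8 to 68.4 TPM in liver. Their calls stood without the 4 marker-rich gland libraries, with ABCG1 then at -1.23.

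The liver of baboon 5, the only male, differed from the others in the makeup of its apolipoprotein RNA. All 11 hepatocyte markers were lowest there, with a sum of 22413 TPM against 51573 to 63970 TPM in baboons 1 to 4. Of the 9 apolipoproteins, 5 were also lowest there (APOA4, APOA5, APOB, APOF and APOH), yet APOA1 and APOA2 were highest. Relative to the median of the 5 livers, on the log2 scale, baboon 5 stood at -4.64 for APOA4, -2.16 for APOB, -1.55 for APOA5, -1.38 for APOF and -1.30 for APOH. It stood at 0.74 for APOA2, 0.57 for APOA1 and -0.039 for APOE. APOC1, APOC2 and APOC4, not among the 9, also split, at 0.077, -1.26 and 0.44. With 1 male animal, sex, the animal and the piece of tissue cannot be told apart.

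A ratio within a library does not depend on the library total. The ratio of APOA2 to APOH was chosen after the values were seen. It was 6.83, 7.21, 8.19 and 8.11 in the livers of baboons 1 to 4 and 33.4 in baboon 5. APOA2 was highest and APOH lowest in the liver of baboon 5, so its high liver ratio follows from the choice of pair. By contrast, the ratio of APOA2 to APOA1 in that liver, 2.979, lay among the 2.05 to 3.226 of the other livers. In its other tissues, baboon 5 had the highest ratio of the 5 animals in pancreas (16.5 against 7.50 to 13.04 in the others) and in parotid (13.98 against 7.76 to 12.6). In submandibular gland (12.3) and sublingual gland (11.4) it lay among the other animals. So the ratio of APOA2 to APOH was far above the other animals in the liver of baboon 5. It was above them by less in its pancreas and parotid, and within their span in the other 2 glands. The ratio of APOC3 to APOA4 in the parotid of baboon 5 was 461 against 49.7 to 70.04 in the other parotid glands, with APOA4 there at 0.0941 TPM.

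**Figure D3:**
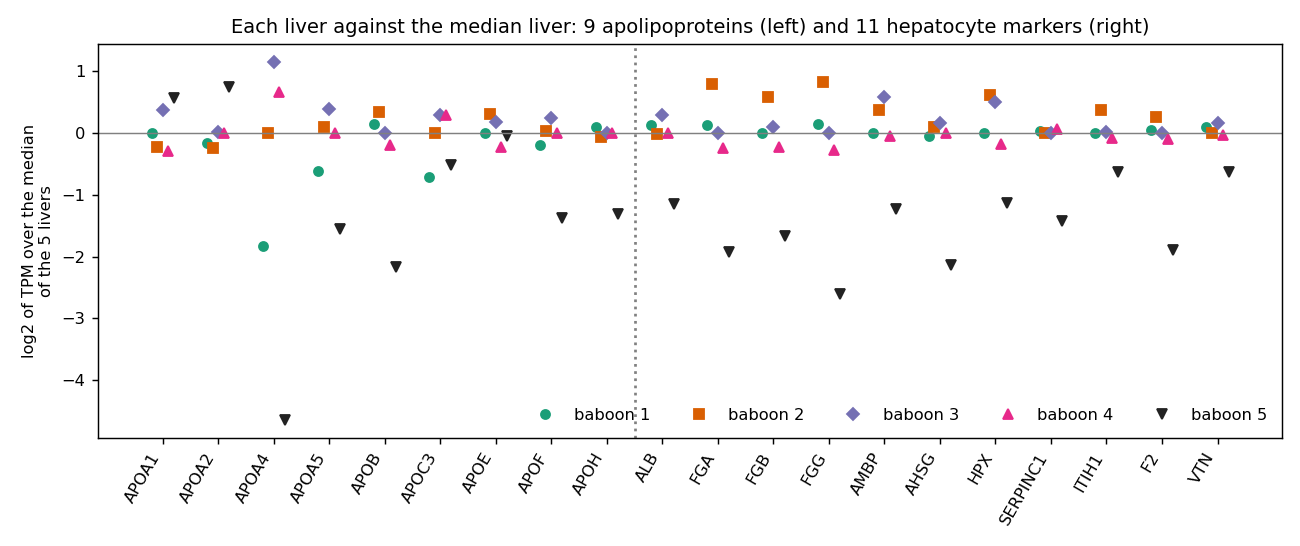
Log2 of the TPM of each liver over the median of the 5 livers, for 9 apolipoproteins and 11 hepatocyte markers, with 1 point per animal. The points of baboon 5 are lowest for all 11 markers and for 5 apolipoproteins, down to -4.64 for APOA4, and highest for APOA1 and APOA2.

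Outside liver the apolipoproteins were low but above 0 TPM in every library, and their level was set beside that of the hepatocyte markers. Such low levels were not particular to liver genes. The 6 pancreatic acinar markers summed to 564.4 to 1055.4 TPM in liver and 113.7 to 1830.0 TPM in the glands, against 65233.7 to 127100.1 TPM in pancreas. Whether these low levels reflect transcription in the tissue itself was not tested. Each value was expressed as a percent of the liver library of the same animal. The median of the 11 hepatocyte markers lay between 0.236% and 1.82% over the 20 libraries outside liver, with a median of 0.692%. The median of the 8 apolipoproteins other than APOE lay between 0.192% and 1.57%, with a median of 0.603%. Both medians were high in the sublingual gland of baboon 3 (1.82% and 1.37%) and lowest in the submandibular gland of baboon 4 (0.236% and 0.192%). APOH lay above the highest of the 11 markers in 0 of 20 libraries, APOA1 and APOA5 in 1 each, APOC3 in 2, APOB in 3, APOA2 and APOF in 5 each and APOA4 in 8. Below the lowest of the 11 markers lay APOA5 in 13 libraries, APOA1 in 10, APOC3 in 8, APOA4 in 7, APOA2 and APOH in 4 each, APOF in 2 and APOB in 0. APOB, APOH and APOF were thus within the marker range in 17, 16 and 13 libraries, while APOA5 was mostly under it. The part of hepatocyte RNA in these levels was not tested.

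Scaling between libraries moves these percents but not the comparison with the markers, since both are divided by the same factor. With TMM scaling the median of APOA1 in submandibular gland moved from 0.287% to 0.590% and that of APOF from 0.532% to 1.26%. In pancreas, all 9 medians were larger by between 1.53 and 1.63 times. The percents of baboon 5 also depend on its own liver, where several of the 9 were low. Against the mean of the 5 livers, the 8 apolipoproteins in the pancreas of baboon 5 lay between 0.263% and 0.553%, and against its own liver between 0.350% and 14.1%, the highest being APOA4. That choice of reference was made after the values were seen.

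APOE lay above the marker range more often than the other 8. It was above the highest hepatocyte marker in 12 of 20 libraries. These were all 5 submandibular glands, 4 parotid glands and 3 sublingual glands, with 0 from pancreas. In the remaining parotid, of baboon 5, APOE at 7.56% lay under a single marker, F2 at 12.11%. The next marker there, FGG, was at 3.317%. F2 was also the highest marker in the parotid of baboon 2 (1.702%) and the submandibular glands of baboons 2 and 5 (1.597% and 3.292%). The counts of genes above the marker range therefore depend in part on F2. Its level was 66.0, 2054, 119.7, 41.3 and 679 TPM in the parotid glands of baboons 1 to 5. In submandibular gland it was 61.4, 514, 90.7, 28.6 and 1682 TPM, and in sublingual gland 113.7, 84.5, 225, 88.1 and 158 TPM. In pancreas it held between 75.5 and 121 TPM in all 5 animals. Baboons 2 and 5 thus gave the 4 highest values, in parotid and submandibular gland, and the other 11 gland libraries lay between 28.6 and 225 TPM. As a percent of the animal's own liver, the parotid of baboon 2 reached 18.0% and the submandibular gland of baboon 5 reached 18.7%, where the hepatocyte medians were 0.443% and 0.699%.

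**Figure D4:**
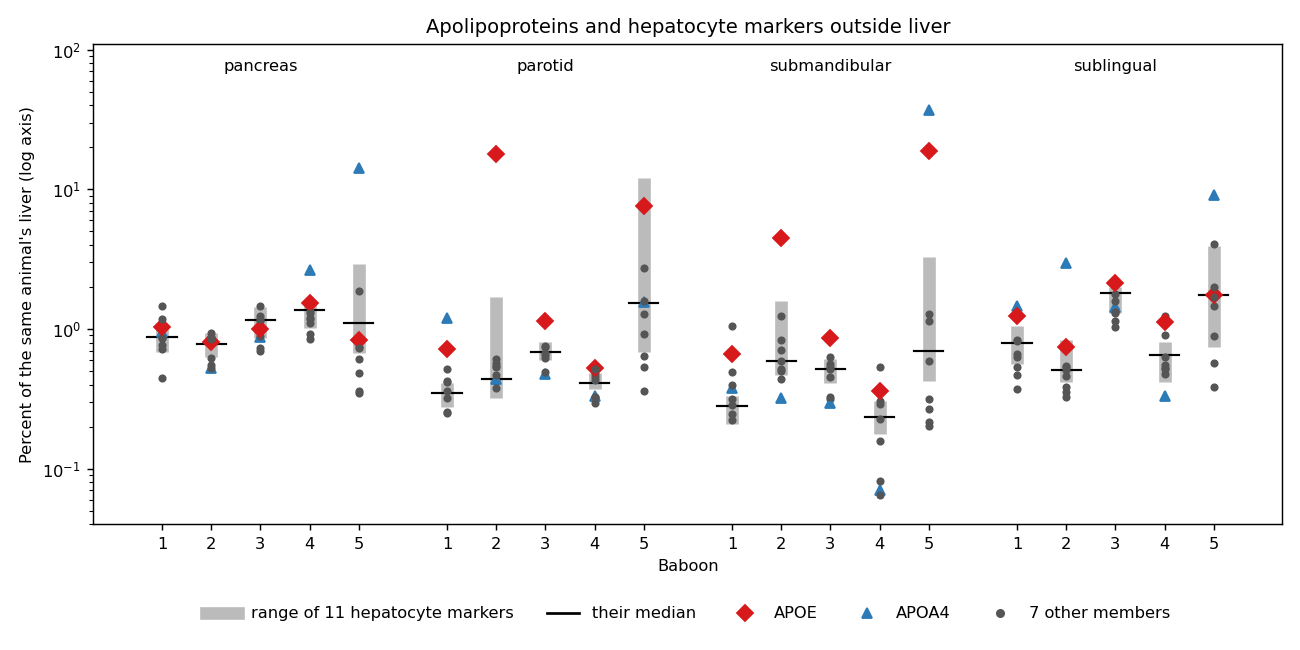
Level outside liver as a percent of the same animal's liver (log axis) in 20 libraries, with a grey bar for the range of 11 hepatocyte markers, a black line for their median, and points for APOE, APOA4 and 7 other apolipoproteins. APOE lies above the bar in 5 of 5 submandibular and 0 of 5 pancreas libraries. Points of other genes lie above, within and below it, with APOA4 above it in 8 of 20 libraries.

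APOC1, the gene next to APOE in the gene order, did not rise in proportion to it. APOC1 was at 140.7 and 333.9 TPM in the parotid glands of baboons 2 and 5. In their submandibular glands it was at 274.6 and 349.0 TPM. The other 11 gland libraries had APOC1 between 43.5 and 324.4 TPM. The ratio of APOE to APOC1 was 0.405 to 0.641 in liver and 0.518 to 0.782 in pancreas. It was 14.6 in the parotid of baboon 2, 2.03 in the parotid of baboon 5, 1.87 in the submandibular gland of baboon 2 and 4.82 in that of baboon 5. In the other 11 gland libraries the ratio lay between 0.361 and 1.04. The 4 libraries high in APOE were therefore also those with the highest ratio, which does not depend on the library total.

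Of the marker lists for other cells that make APOE, only the adipocyte sum exceeded the other 11 gland libraries in all 4 of these. The 6 adipocyte markers summed to 21974.5, 399, 2814 and 6992 TPM in the parotid of baboon 2, the parotid of baboon 5, and the submandibular glands of baboons 2 and 5, and to between 17.3 and 262 TPM in the other 11 gland libraries. In the same order, 6, 3, 5 and 6 of the 6 markers lay above all 11 others. The 9 macrophage markers summed to 1263, 1559, 325 and 43.8 TPM, against 8.43 to 163 TPM in the other 11, and 8, 8, 7 and 0 of the 9 lay above all of them. The submandibular gland of baboon 5 thus had APOE at 1682 TPM with adipocyte markers high and macrophage markers within the span of the other glands. The 4 Schwann cell and glia markers summed to 809, 50.4, 198 and 615 TPM in the same order, against 10.2 to 418 TPM in the other 11. Of those 4 markers, 1, 0, 0 and 1 lay above all 11 others. That marker was S100B, at 729 and 596 TPM. No marker of the 3 lists was at 0 in the 4 libraries. The parts of these cells in the APOE level were not tested.

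**Figure D5:**
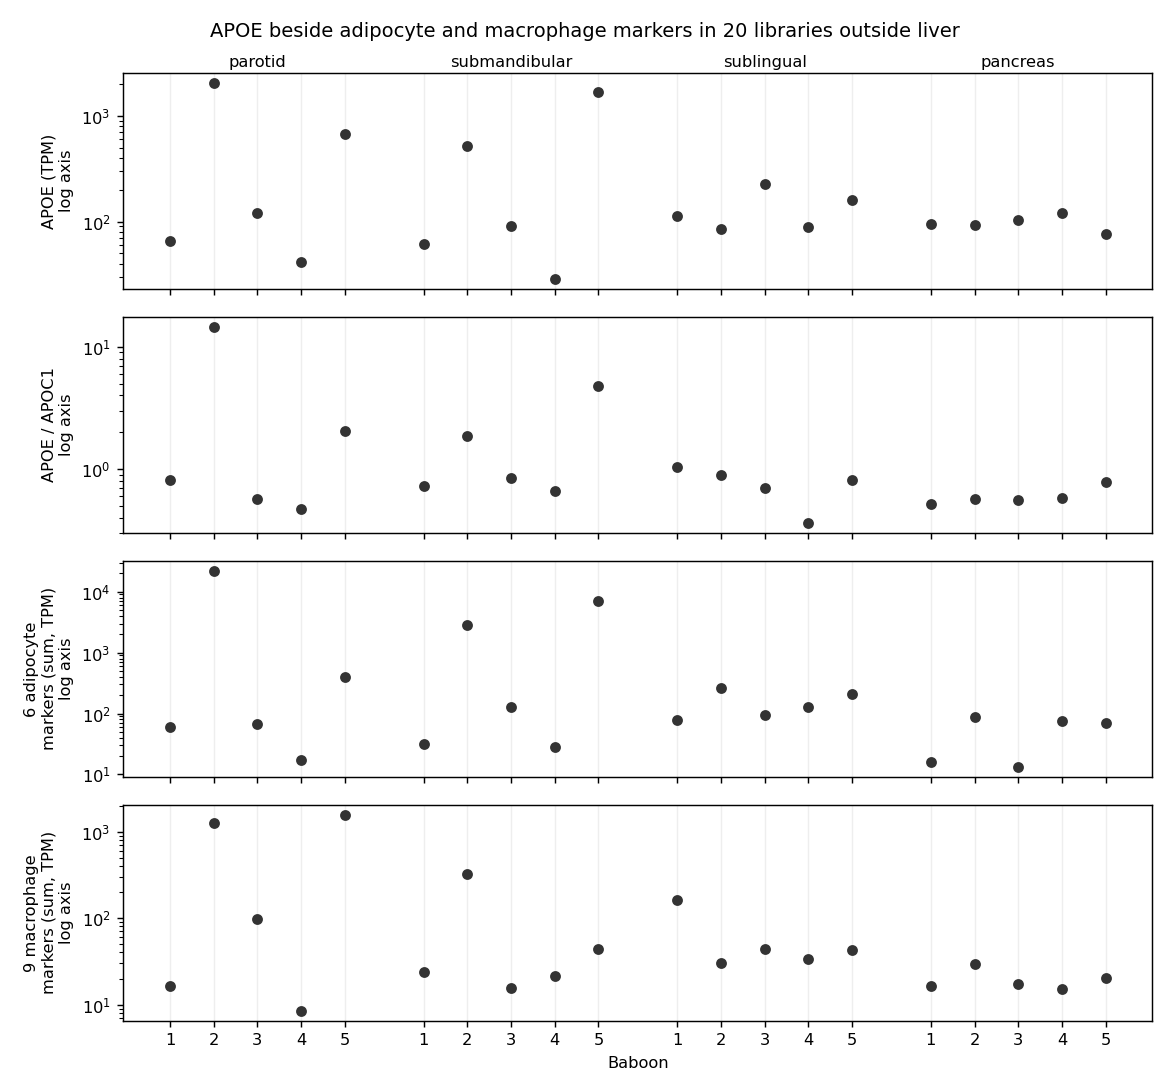
APOE in TPM, the ratio of APOE to APOC1, and the summed TPM of 6 adipocyte and 9 macrophage markers (all log axes) in 20 libraries outside liver, by tissue and baboon. APOE peaks at 2054, 679, 514 and 1682 TPM in the parotid and submandibular glands of baboons 2 and 5, where the ratio and the adipocyte sum are also highest among the glands.

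APOA4 lay outside the hepatocyte marker range in 15 of 20 libraries, 8 above it and 7 below. Of the 8 above, 3 had the higher levels: 6.30 TPM in the pancreas of baboon 4, 4.42 TPM in the sublingual gland of baboon 2 and 2.21 TPM in the submandibular gland of baboon 5. The enterocyte marker FABP2 was at 13.1, 9.34 and 5.65 TPM in these 3, in the same order, and at 0 to 0.473 TPM in the other 17 libraries outside liver. The other 5 libraries above the range had APOA4 at 0.846 TPM (pancreas of baboon 5), 0.504 TPM (parotid of baboon 1), 0.158 TPM (submandibular gland of baboon 1), and 0.617 and 0.544 TPM (sublingual glands of baboons 1 and 5). Of the 8, 3 belong to baboon 5, whose own liver APOA4 was low. The sublingual gland and pancreas of baboon 3, at 4.80 and 2.91 TPM, lay within the range. FABP2 also stood at 9.62 TPM in the liver of baboon 1. SI, a defining enterocyte enzyme, was at most 0.0219 TPM over the 25 libraries, and RBP2 was at 0 in the 3 libraries with high FABP2, so the list of 5 enterocyte genes did not move as a whole. Its part in the APOA4 level was not tested.

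With all libraries, no apolipoprotein was called between a gland and pancreas. In parotid against pancreas, 0 of 9 were called, where 3.82% of all genes were called in either direction. In submandibular gland against pancreas 0 were called (4.08% of all genes), and in sublingual gland against pancreas 0 (9.47% of all genes). At an unadjusted p under 0.05 with limma, the counts were 0, 5 and 0, where 18.5%, 12.2% and 31% of all genes passed. The 5 were APOA1, APOA2, APOA5, APOC3 and APOH, all lower in submandibular gland. A missed threshold does not show that levels were equal.

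APOH was nearest to a call. It stood at 28.7, 28.5, 41.4, 42.1 and 10.4 TPM in pancreas and at 8.36, 19.97, 18.9, 5.61 and 8.45 TPM in submandibular gland, lower in 5 of 5 animals with overlapping ranges. The log2 fold change was -1.25 (SE 0.42, limma adjusted p = 0.117). With scaling between libraries by TMM or by median of ratios, APOH was called lower, at -1.42 and -1.43, together with APOA1, APOA5 and APOC3, where 9.11% and 9.16% of all genes were called. Without the 4 marker-rich gland libraries APOH alone was called, at -1.38 (6.03% of all genes called), and without the 7, APOH, APOA1, APOA2, APOA5 and APOC3 were called lower (13.5% of all genes). Scaling also brought a call for APOH in parotid against pancreas (TMM, 8.62% of all genes), and for APOH and APOA1 with median of ratios (8.75%), and without the 7 gland libraries APOH was called there (11.2%). The TPM medians over all genes differed by 0.45 between parotid and pancreas and by 0.17 between submandibular gland and pancreas, and TMM scaling brought these to 0.064 and 0.028. The hepatocyte markers summed to 104 to 362 TPM in submandibular gland and 199 to 683 TPM in pancreas, moving the same way as APOH, and their part was not tested.

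APOE went the other way in mean, 592 ± 858 TPM in parotid against 97.9 ± 16.8 TPM in pancreas (SD, n = 5), but only 3 of 5 parotid glands were higher than the pancreas of the same animal. The log2 fold change was 1.15 (SE 0.79, limma adjusted p = 0.406). Without the 4 marker-rich gland libraries it was -0.24 and without the 7 it was -0.51, so its sign rested on them. In submandibular gland the APOE difference from pancreas was 0.81 with all libraries, -0.054 without the 4, -0.85 without the 7 and -0.10 without baboon 5.

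Between glands, 0 of 9 were called in all 3 comparisons, where 0% of all genes were called between parotid and submandibular gland, 0.113% between parotid and sublingual gland and 0.0667% between submandibular and sublingual gland. At an unadjusted p under 0.05 with limma, 0, 0 and 3 of the 9 passed, where 1.69%, 9.13% and 14.1% of all genes did. The 3 were APOA5, APOC3 and APOH, all lower in submandibular than in sublingual gland. The sublingual library of baboon 3 stood out there, with APOC3 at 159.5 TPM against 34.4 to 62.5 TPM in the other 4, APOH at 56.2 TPM and APOA5 at 9.93 TPM. Its hepatocyte sum was 979 TPM against 308 to 369 TPM in the other 4. Without baboon 2 the count between submandibular and sublingual gland was 4 (APOA1, APOA5, APOC3 and APOH), where 17.8% of all genes were called, and without the 4 marker-rich gland libraries it was 1 (APOH), where 12.1% were. Without the 7 gland libraries that stood apart, 8 of the 9 were called lower in submandibular than in sublingual gland, all but APOA4, and 5 lower in parotid than in sublingual gland. In that fit 41.8% and 33.9% of all genes were called, and sublingual gland held only baboons 3 and 5.

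The genes whose pattern was most like each apolipoprotein were found by the root-mean-square (RMS) difference in log2(TPM + 1), centred on each gene's mean, over the 25 libraries. APOH was nearest to ALB, the plasma carrier albumin, and HRG, another plasma protein, both at 0.13. APOB was nearest to OTC, a urea cycle enzyme, at 0.16 and to CREB3L3 at 0.21. APOA5 was nearest to SULT2A1 and HPX at 0.25 and 0.26, APOA1 to AGXT and CCL16 at 0.28 and 0.33, APOF to SERPINF2 and IGFALS at 0.28 and 0.29, and APOC3 to SAA4 and CCL16 at 0.28 and 0.33. APOA2 was nearest to APOC4 at 0.28 and AGXT at 0.39 among genes outside the 9. APOA1 and APOA2 differed from each other by 0.29. By contrast, the nearest genes to APOA4 were HSD17B13 and AKR1D1 at 0.82 and 0.83, and the nearest to APOE were SHMT1 and RARRES2 at 0.72 and 0.73. The nearest of the 9 to APOE was APOB at 1.49. These distances are descriptions over libraries that share animals and tissues.

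In the gene order of the RefSeq table (Panubis1.0 assembly), APOA1, APOC3, APOA4 and APOA5 are adjacent, as are APOC2, APOC4, APOC1 and APOE. The annotated spans of APOC3 and APOA4 overlap, and no strand setting is given, so reads from the shared stretch could be split between them. Adjacent genes did not keep fixed proportions: the ratio of APOC3 to APOA4 in liver was 142, 65.2, 36.1, 50.4 and 1137 in baboons 1 to 5, whereas that of APOC3 to APOA1 stayed between 0.424 and 1.34.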

How the data were processed

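The deposited values are TPM per gene, and the table's name states that they are kallisto abundances. Per the submitters' processing notes, FastQC, MultiQC, cutadapt, HISAT2, kallisto, SAMtools, featureCounts and DESeq2 were used somewhere in the study, while versions, index, build and annotation are not given in the sources used here. Each library sums to 999999.5 to 1000000.6 TPM, so a gene's value falls where a few others take much of the library, and depth is unknown. Per the labels' protocols, DNase-treated total RNA from thin sections was sequenced in pairs, and the design text speaks of mRNA libraries.

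All 21287 identifiers matched the RefSeq gene table, used for names and gene order only. The 14991 genes that averaged 1 TPM or more in some tissue were fitted with limma 3.58.1 in R 4.3.3 on log2(TPM + 1), a scale that understates the change of low genes, with tissue and animal as terms in all 25 libraries. Benjamini-Hochberg adjustment ran within each of 10 comparisons, and a call needed an adjusted p under 0.05 and a log2 fold change of at least 1 in size. Libraries with the same number come from the same animal: deviations from tissue means correlated at 0.161 over 50 same-animal pairs and at -0.035 over 200 other pairs. Deviations cancel out within a tissue, so the second value follows largely from the first and is not a separate contrast. Scripts were tested on simulated data. Other computations used Python 3.11.15, pandas 2.3.3 and numpy 2.4.6.

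The members and gene lists were chosen with earlier results of these data known. All 9 members are named. Of each pathway list, up to 3 called genes with the largest fold change in each direction against pancreas or parotid are named, with 2 nearest genes per member, and some genes this rule names are not reported here. Other genes named were chosen after their values were seen: LPL, LPA, APOO, APOOL, AQP5, S100B, FABP2, SI, RBP2, F2 and FGG. Markers not used were PLG and ALPI, and of the pathway lists APOL1, APOL2, APOL3, APOL6, CLU, LIPC and LMF1. Alternatives were no animal term, 2 tissues per fit, TMM and median-of-ratios scaling of TPM, no filter, a filter at 5 TPM, a pseudocount of 0.1, each animal left out, the 4 marker-rich gland libraries left out, and, added after seeing the data, 7 gland libraries left out.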

Additional observations from a re-analysis of the deposited data

Results flagged for a closer look

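Each of 9 apolipoproteins in each of 5 tissues was tested for a lone extreme animal among its 5, by the gap to the nearest other animal over the whole range with a critical value of 0.71. Of these 45 groups, 6 had one. Chance gives about 1 in 20 for groups of normally distributed values. The 45 groups hold untransformed TPM and share libraries, so the 6 cannot be set against that rate. In liver, baboon 5 was highest for APOA2 at 47909 TPM, with the next animal at 28915 TPM, and lowest for APOH at 1433 TPM, with the next at 3371 TPM. In sublingual gland, baboon 3 was highest for APOA5 at 9.93 TPM, for APOC3 at 159.5 TPM and for APOH at 56.2 TPM. In parotid, baboon 3 was highest for APOC3 at 90.6 TPM, with the next animal at 45.9 TPM. The hepatocyte markers of baboon 3 summed to 979 TPM in sublingual gland and 426 TPM in parotid, the highest of each tissue, and their part in these values was not tested.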

How the results depend on the processing

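All 9 apolipoproteins kept their call as higher in liver in all 4 comparisons under each of the 14 alternatives. Without the animal as replicate block, the counts of members called were 9 in each liver comparison and 0 in each of the other 6, as with it. The counts against pancreas rose with scaling between libraries: in parotid to 1 (TMM) and 2 (median of ratios), and in submandibular gland to 4 with both. Without the 4 marker-rich gland libraries the count was 1 for submandibular gland against pancreas and 1 against sublingual gland. Leaving out 1 animal gave 0 to 4 for submandibular against sublingual gland, the 4 without baboon 2. Without the 7 gland libraries, an alternative added after seeing the data, the counts were 1, 5 and 0 for parotid, submandibular and sublingual gland against pancreas, 5 for parotid and 8 for submandibular against sublingual gland. Of 1008 member values under an alternative, 42 turned sign, none in a liver comparison and 1 of them called, and the cause was not tested. Parotid against submandibular gland and parotid against sublingual gland were left out of that count. In sublingual gland against pancreas, TMM and median of ratios gave -0.39 and -0.37 for APOA4 (reported as 0.016), -0.60 and -0.58 for APOA5 (0.004), and -0.43 and -0.42 for APOE (0.36). In the same comparison, leaving out 1 animal gave -0.37 to 0.095 for APOA2, -0.38 to 0.53 for APOA4, -0.17 to 0.20 for APOA5, -0.20 to 0.063 for APOB, -0.26 to 0.13 for APOC3 and -0.44 to 0.12 for APOH. Leaving out the 4 marker-rich gland libraries there gave 0.090 for APOA2, -0.17 for APOA4, 0.084 for APOB, 0.26 for APOC3 and 0.088 for APOH. APOE against pancreas turned to -0.24 in parotid and -0.054 in submandibular gland without those libraries, and ranged from -0.10 (without baboon 5) to 1.52 in submandibular gland with 1 animal left out. In submandibular against sublingual gland, APOE ranged from -0.29 to 0.95 with 1 animal left out and was -0.78 without the 4 libraries, and APOF turned to 0.30 and 0.28 with TMM and median of ratios. Without the 7 gland libraries, sublingual gland against pancreas gave 0.007 for APOA1, 0.044 for APOA2, 0.56 for APOB, 0.50 for APOC3, 0.52 for APOF and 0.58 for APOH. In that fit APOE was -0.51 in parotid and -0.85 in submandibular gland against pancreas, and -1.68, called, in submandibular against sublingual gland. APOE was also called lower in parotid than in sublingual gland in that fit, where all libraries gave 0.79.

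Counts over all genes moved more. The number called either way between liver and parotid was 2064 and was 2997 with TMM. The counts were 2474 and 3018 against submandibular gland, 2316 and 3040 against sublingual gland, and 2623 and 2757 against pancreas. For glands against pancreas it was 572 and 1236 in parotid, 611 and 1307 in submandibular and 1419 and 1649 in sublingual gland. TMM changed the share of calls that were higher in liver from 79.4% to 62% for parotid, 84.2% to 60.9% for submandibular gland and 83.7% to 60.2% for pancreas, and the share higher in sublingual gland than in pancreas from 73.6% to 38.9%. Leaving out 1 animal gave 393 to 3011 calls for sublingual gland against pancreas and 0 to 2627 for submandibular against sublingual gland, and leaving out the 4 marker-rich gland libraries gave 5173 and 1761. Between parotid and sublingual gland the 17 calls became 3119 without those libraries. Without the 7, calls between liver and parotid, submandibular gland, sublingual gland and pancreas numbered 5565, 6459, 4163 and 4258. The limits are the unknown depth, 1 male animal, and gland pieces of unequal makeup.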
